A study of Mus musculus with 57 samples.

Results

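The Iroquois homeobox genes are the 6 genes *Irx1* to *Irx6*, taken by name from tables that list 56860 mouse genes. They encode transcription factors of the TALE class of homeodomain proteins, and lie in the genome as clusters of 3 that arose by duplication. *Irx1*, *Irx2*, *Irx3* and *Irx5* are known from the branching epithelium of the developing lung. *Irx3* and *Irx5* also act together in heart and limb development, *Irx4* is best known as a gene of the heart ventricle, and *Irx6* as a gene of retinal interneurons. The bulk RNA-seq data asked how loss of *Hoxa5*, a HOX transcription factor gene, alters transcription in 7 contexts of the mouse embryo.

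The contexts were lung (E12.5 and E15.5, in embryonic days), trachea (E15.5), diaphragm (E15.5), somites (E10.5 and E12.5) and the interscapular depot of brown adipose tissue (iBAT, E18.5). Wild-type (wt) and *Hoxa5*-/- embryos, the latter homozygous for the constitutive null allele *Hoxa5*tm1Rob, were all kept on the 129/Sv background. Each genotype had 4 libraries per context, except somites at E10.5 with 4 wt and 3 *Hoxa5*-/- libraries and iBAT with 5 and 5, which gives 57 libraries in 14 groups. The samples called somites are tissue of vertebral levels C3 to T2 and hold more than somite cells. Of the surrounding parts, chest organs, forelimbs and the neural tube were taken off. The 32 respiratory libraries, from lung, trachea and diaphragm, had single-end reads of 100 bases and the 25 others paired-end reads of 150 bases, from different sequencing centres, so levels were tested across contexts only within each set. Total counts per library lay between 18369905 and 72991481, the lowest in iBAT and the highest in *Hoxa5*-/- lung at E12.5.

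*Hoxa5* itself was lower in the *Hoxa5*-/- libraries of all 7 contexts, without overlap between genotypes. The fall was 3.26-fold in trachea (from 95.6 ± 14.1 to 29.5 ± 6.87 TPM, mean ± SD, n = 4 each, where TPM is the transcript abundance scaled to a fixed sum per library), 3.83-fold in lung at E12.5, 3.60-fold in lung at E15.5 and 3.58-fold in diaphragm. In somites it was 1.89-fold at E10.5 and 3.04-fold at E12.5, and in iBAT 3.83-fold. Exon reads of the disrupted gene were still counted in mutants, so the gene was not at 0 in any library. Markers of the labelled tissues were present throughout. The summed level of 7 skeletal muscle markers was between 8030 and 21900 TPM in diaphragm, that of 8 brown fat markers between 12000 and 18500 TPM in iBAT, and that of 6 somite markers between 257 and 369 TPM in somites of both stages. In lung at E12.5 *Nkx2-1*, the transcription factor gene of lung epithelium, ranged from 168 to 215 TPM. In lung at E15.5 *Sftpc*, the surfactant protein C gene of the distal epithelium, ranged from 1140 to 7610 TPM, and in trachea 5 cartilage markers summed to between 943 and 4000 TPM.

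In 3 groups there was a library whose Iroquois levels stood apart, and the main tests that rest on these libraries are given with and without them. In wt diaphragm replicate 3 the 6 genes summed to 63.6 TPM, against 4.11, 6.25 and 3.20 TPM in replicates 1, 2 and 4. In *Hoxa5*-/- lung at E15.5 the sum was 241 TPM in replicate 4 and 447, 465 and 461 TPM in replicates 1, 2 and 3. In wt somites at E10.5 replicate 3 held 17.03 TPM of *Irx1* and 5.27 TPM of *Irx4*, whereas the other 3 libraries lay between 9.59 and 10.2 TPM and between 1.93 and 2.43 TPM. The diaphragm and lung libraries also stood apart in epithelial markers, and the somite library in muscle markers, as described with the respective comparisons. Replicate 1 of *Hoxa5*-/- lung at E12.5 was high for *Irx1* and *Irx2* and is described with its comparison.

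On chromosome 13 (GRCm39) *Irx1* (ENSMUSG00000060969.10) spans chr13:72106040-72111842 on the minus strand, *Irx2* (ENSMUSG00000001504.11) chr13:72776939-72782317 and *Irx4* (ENSMUSG00000021604.16) chr13:73408598-73417727, both on the plus strand. On chromosome 8 *Irx3* (ENSMUSG00000031734.14) spans chr8:92525153-92528695 on the minus strand, *Irx5* (ENSMUSG00000031737.12) chr8:93084253-93102914 and *Irx6* (ENSMUSG00000031738.15) chr8:93400916-93407584, both on the plus strand. Neighbours within a cluster are far apart, with 665.1 kb between *Irx1* and *Irx2*, 626.3 kb between *Irx2* and *Irx4*, 555.6 kb between *Irx3* and *Irx5* and 298.0 kb between *Irx5* and *Irx6*. Each of 3 members has a long noncoding RNA gene on the opposite strand at its start. *Gm20554* begins 180 bases from *Irx2*, *Crnde* begins 5 bases from *Irx5*, and *Irx3os* overlaps *Irx3* over 1656 bases. The strand setting of the counting is not given in the sources used here, so reads of *Irx3* and *Irx3os* from the overlap cannot be told apart.

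Promoter sequence is shown for *Irx2*, since it also holds the start of *Gm20554*, whose level followed that of *Irx2* (given with the neighbouring genes), and for *Irx4*, which was above 1 TPM in somites alone. Both are windows upstream of the annotated start, 5′ to 3′ on the strand of the gene, from the RefSeq promoter table (GRCm38.p6), which matched 3 of the 6 genes, and each was found once in GRCm39. The *Irx2* window, chr13:72776689-72776938 (+), holds 250 bases, and capitals mark the 180 bases between the starts of *Gm20554* and *Irx2*. The *Irx4* window, chr13:73408366-73408597 (+), holds 232 bases without a marked part.
Irx2: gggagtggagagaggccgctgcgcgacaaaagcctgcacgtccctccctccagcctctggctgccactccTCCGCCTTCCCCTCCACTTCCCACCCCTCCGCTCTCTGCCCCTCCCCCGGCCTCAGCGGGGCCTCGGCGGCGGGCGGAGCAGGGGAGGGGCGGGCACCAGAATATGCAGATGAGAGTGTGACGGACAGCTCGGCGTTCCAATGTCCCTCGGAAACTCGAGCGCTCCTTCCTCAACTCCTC
Irx4: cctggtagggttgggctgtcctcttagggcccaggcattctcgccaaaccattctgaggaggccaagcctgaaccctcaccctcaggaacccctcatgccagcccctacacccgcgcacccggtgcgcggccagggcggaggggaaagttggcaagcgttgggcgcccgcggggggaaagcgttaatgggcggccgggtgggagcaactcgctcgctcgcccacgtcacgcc
Both windows are rich in G and C, at 68.4% and 68.8% against a median of 52.4% over 32851 promoters, and their observed over expected CpG ratios are 0.67 and 0.74 against a median of 0.37. The Iroquois palindrome ACANNTGT (in 6.3% of all promoters), TGATNNAT as a letter pattern of PBX-HOX sites (7.7%), TGACAG of MEIS sites (15.9%) and the TATA box TATAAA (12.4%), each searched on both strands, have no match in either window, which says only that these letters are not in these bases.

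Among the 4 respiratory contexts, lung expressed *Irx1*, *Irx2*, *Irx3* and *Irx5* at the highest level in wt embryos, followed by trachea and diaphragm. All levels are TPM, which divides counts by exon length, and can be compared between genes. In lung at E15.5 *Irx1* was at 147, 145, 142 and 135 TPM, *Irx3* at 145, 135, 127 and 119 TPM, *Irx2* at 115, 117, 123 and 113 TPM, and *Irx5* at 72.7, 70.1, 65.6 and 65.6 TPM. The ranges of *Irx1* and *Irx3* overlapped, as did those of *Irx3* and *Irx2*, while *Irx5* lay below the rest. In lung at E12.5 *Irx1* was at 107, 105, 110 and 116 TPM, *Irx3* at 84.1, 86.7, 98.97 and 94.0 TPM, *Irx2* at 80.6, 90.7, 91.2 and 86.2 TPM, and *Irx5* at 47.7, 43.2, 48.9 and 48.0 TPM. The order was the same at both stages, with *Irx3* and *Irx2* again overlapping.

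Trachea had another order. There *Irx2* led with 41.3, 38.4, 57.4 and 35.1 TPM, followed by *Irx3* with 28.9, 19.6, 28.4 and 20.1 TPM, *Irx1* with 22.9, 19.9, 23.7 and 18.498 TPM, and *Irx5* with 18.99, 17.04, 19.01 and 14.9 TPM. *Irx2* exceeded the 3 others in every wt trachea library, whereas neighbours among those 3 overlapped. The ratio of *Irx1* to *Irx2* within a library was 0.503 ± 0.0624 in trachea and 1.22 ± 0.0541 in lung at E15.5 (SD, n = 4 each), and the ranges of the ratio, 0.412 to 0.554 and 1.16 to 1.28, did not overlap.

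In wt diaphragm the 4 genes were between 0.189 and 2.69 TPM except in the library that stood apart. *Irx1* was at 1.001, 0.929, 17.7 and 0.189 TPM, *Irx2* at 0.517, 1.82, 16.9 and 0.695 TPM, *Irx3* at 1.955, 2.69, 19.9 and 1.62 TPM, and *Irx5* at 0.641, 0.817, 9.12 and 0.698 TPM in replicates 1 to 4. Without replicate 3 the group means were 0.707 ± 0.449 TPM for *Irx1*, 1.01 ± 0.705 TPM for *Irx2*, 2.09 ± 0.548 TPM for *Irx3* and 0.719 ± 0.0899 TPM for *Irx5* (SD, n = 3). The plot of levels by library shows this library alone among the diaphragm samples, far above the rest for all 4 genes.

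**Figure D1:**
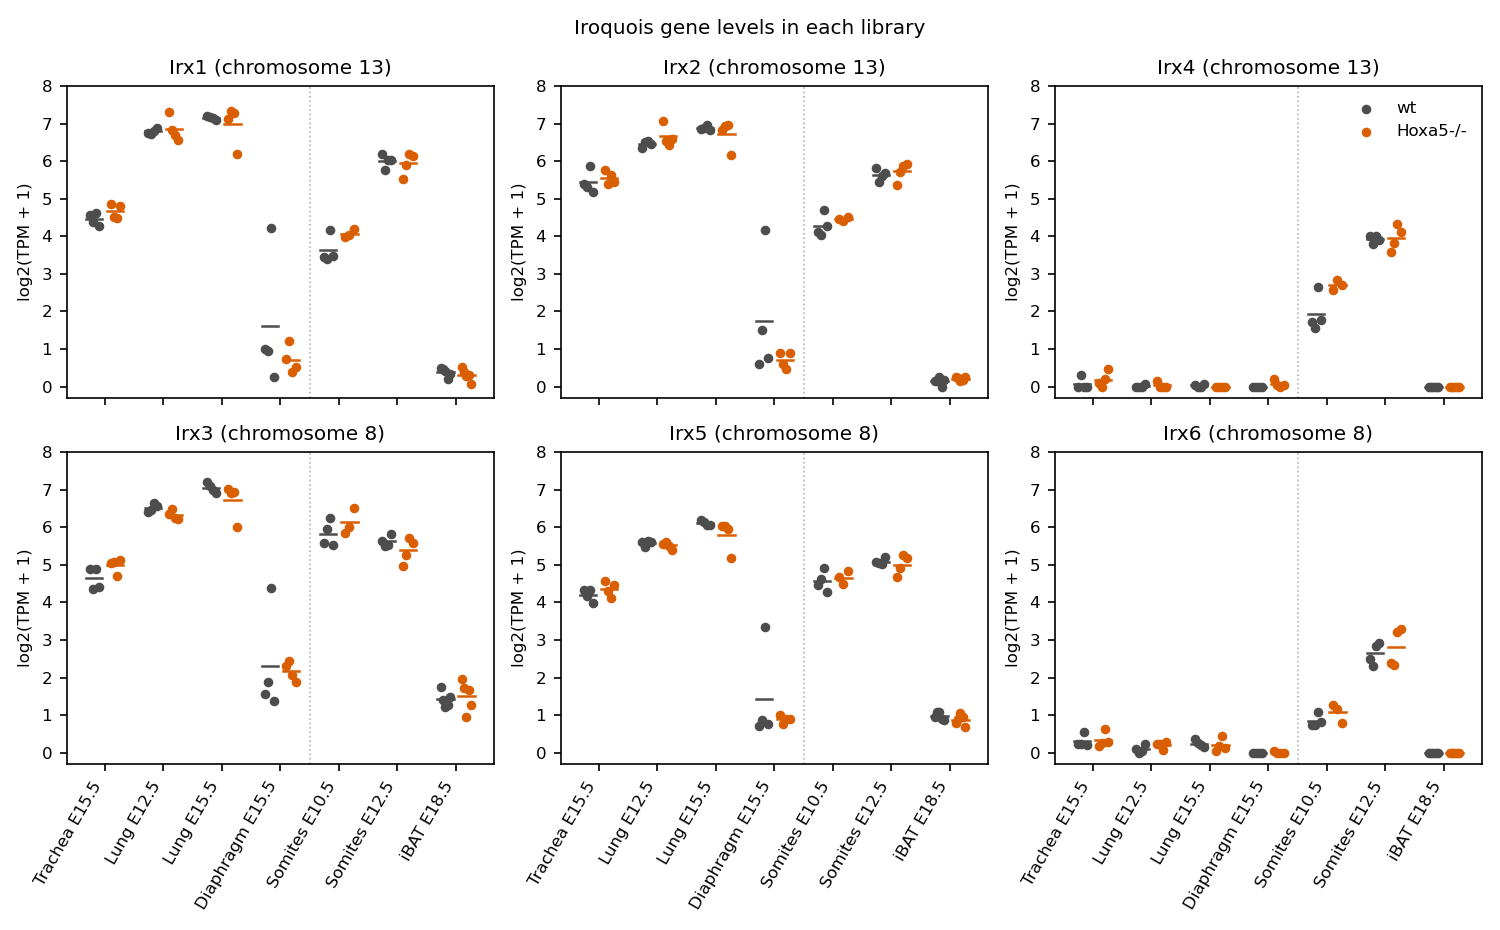
Level of each Iroquois gene in each library as log2(TPM + 1), wt in grey and *Hoxa5*-/- in orange, with the group mean as a bar; the dotted line divides the libraries of the different sequencing centres. *Irx1*, *Irx2*, *Irx3* and *Irx5* were high in lung, intermediate in trachea and somites and low in diaphragm and iBAT, while *Irx4* and *Irx6* reached 1 TPM in somites and in no other context.

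In wt somites at E10.5 *Irx3* had the highest level, at 46.4, 60.7, 74.9 and 45.5 TPM. *Irx5* followed with 21.03, 23.6, 29.2 and 18.4 TPM, then *Irx2* with 16.2, 15.51, 24.9 and 18.4 TPM, and *Irx1* with 9.98, 9.59, 17.03 and 10.2 TPM. *Irx3* was clear of the others, and each of the neighbours *Irx5*, *Irx2* and *Irx1* overlapped the next. At E12.5 *Irx1* came first, at 71.9, 53.4, 63.8 and 64.7 TPM, with *Irx2* at 55.2, 42.7, 47.3 and 50.2 TPM, *Irx3* at 48.9, 44.2, 45.0 and 55.7 TPM, and *Irx5* at 32.4, 32.1, 31.3 and 35.7 TPM. *Irx1*, *Irx2* and *Irx3* overlapped at this stage, and *Irx5* lay below all of them. In iBAT the order was again led by *Irx3*, at 2.38, 1.64, 1.305, 1.41 and 1.80 TPM, above *Irx5* at 0.917, 1.13, 1.11, 0.844 and 0.816 TPM, *Irx1* at 0.411, 0.373, 0.332, 0.159 and 0.271 TPM and *Irx2*, which was at or below 0.189 TPM in all 5 wt libraries. Of these 4, *Irx3* and *Irx5* did not overlap, nor did *Irx5* and *Irx1*.

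*Irx4* and *Irx6* had the narrowest distribution of the family. In wt somites *Irx4* was at 2.32, 1.93, 5.27 and 2.43 TPM at the earlier stage and at 15.2, 12.99, 15.1 and 14.04 TPM at the later, and *Irx6* at 0.672, 0.671, 1.13 and 0.745 TPM and then at 4.63, 3.94, 6.13 and 6.604 TPM. Stages did not overlap for either gene. Across the trachea, lung and diaphragm libraries of both genotypes *Irx4* had between 0 and 7 counts per library and *Irx6* between 0 and 17, and both genes were at 0 in all 4 wt diaphragm and all 10 iBAT libraries. Over the 5 wt iBAT libraries a count of 0 allows up to 0.0296 TPM of *Irx4* and 0.0229 TPM of *Irx6* (3 counts over the group, counting error only). Against a limit of 3 counts over the group *Irx4* was at least 46.9-fold higher in wt somites at E10.5 and at least 216-fold higher at E12.5, and *Irx6* at least 16.5-fold and 104-fold higher, on the scale of TMM-normalized counts that the tests between iBAT and somites use (101-fold, 484-fold, 35.1-fold and 233-fold in TPM). The limits at E10.5 include wt somites replicate 3 and would be lower without it. Without it the mean of *Irx4* went from 2.99 to 2.23 TPM and that of *Irx6* from 0.805 to 0.696 TPM. Trachea libraries held cardiac muscle RNA, with 7 cardiac markers summing to 3960, 5540, 3150 and 5140 TPM in wt and *Myl7* as the most abundant. *Irx4* had 0, 5, 0 and 0 counts in these wt libraries. Which part of the heart this RNA came from was not tested.

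Lung and trachea were compared to see how the family is divided along the airways. *Irx1*, *Irx2*, *Irx3* and *Irx5* were all lower in trachea than in lung at E15.5, with no overlap between the groups, as were 18.8% of all genes tested. The difference was 7.05-fold for *Irx1* (log2 fold change −2.82, standard error, SE, 0.66), 2.87-fold for *Irx2* (−1.52, SE 0.59), 5.72-fold for *Irx3* (−2.52, SE 0.51) and 4.14-fold for *Irx5* (−2.05, SE 0.50). The quasi-likelihood test of edgeR, adjusted over all genes by Benjamini-Hochberg, gave adjusted p-values of 0.00192, 0.0396, 0.000659 and 0.00255. Calls required an adjusted p below 0.05 together with a change of 1.5-fold or more. All 4 genes were called, where 11.1% of all genes tested were called lower in trachea. Against lung at E12.5, 3 of the 4 were called lower in trachea (15.4% of all genes), *Irx1* by 5.55-fold, *Irx3* by 4.03-fold and *Irx5* by 2.88-fold, and *Irx2* at 2.18-fold was not (adjusted p 0.107). In bulk tissue fewer cells of a type and less RNA per cell cannot be told apart, here and in the comparisons that follow.

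The wt respiratory libraries share 1 estimate of the spread, and wt diaphragm replicate 3 widened it. Without that library the standard errors in the trachea and lung comparison at E15.5 were 0.16, 0.17, 0.13 and 0.08 for *Irx1*, *Irx2*, *Irx3* and *Irx5*, at fold changes of 7.05, 2.86, 5.72 and 4.14, where 11.3% of all genes were called lower. The adjusted p of *Irx2* against lung at E12.5 was 4.15e-05. With it, the call of *Irx2* against lung at E15.5 was near the limit and was lost when any of 10 other libraries was left out, at adjusted p-values between 0.0504 and 0.0832. Of 7 lung epithelium markers, 3 were lower in trachea than in lung at E15.5 and 1 was higher, with a median log2 fold change of −0.84 against −0.02 over all genes. Of 7 general epithelial markers only 1 was lower and the median was −0.18, while all 7 cardiac and all 7 skeletal muscle markers and 4 of 4 squamous epithelium markers were higher in trachea. The part of tissue composition in the lower Iroquois levels of trachea was not tested.

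Between E12.5 and E15.5 the 4 genes were higher at the later stage of lung in every wt library, without overlap, as were 25.5% of all genes tested. Mean levels went from 110 to 142 TPM for *Irx1*, from 87.2 to 117 TPM for *Irx2*, from 91.0 to 131 TPM for *Irx3* and from 46.9 to 68.5 TPM for *Irx5*. None was called, with log2 differences of 0.35 (SE 0.61), 0.40 (SE 0.57), 0.51 (SE 0.48) and 0.52 (SE 0.47), whereas 23.1% of all genes were, and 0 of the 4 had an unadjusted p under 0.05. DESeq2 gave none of the 4 an adjusted p in this fit. Without wt diaphragm replicate 3 the differences were the same and their standard errors 0.14, 0.17, 0.13 and 0.08. The adjusted p-values of edgeR were then 0.0647, 0.0729, 0.00452 and 5.74e-05, so that *Irx3* and *Irx5* passed the p limit at 1.42-fold and 1.43-fold, under the fold limit (23.6% of all genes were called). Epithelial markers were higher at E15.5 as well, 3 of 7 called and with a median log2 fold change of 1.0 against 0.01 over all genes, and *Epcam* went from 177, 184, 226 and 206 TPM to 378, 400, 423 and 400 TPM. Their part in the Iroquois levels was not tested.

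Diaphragm was lowest among the respiratory contexts. The 4 genes were called lower than in lung at E15.5 (15.6% of all genes), by 24.2-fold for *Irx1*, 19.8-fold for *Irx2*, 16.9-fold for *Irx3* and 20.4-fold for *Irx5*, and lower than in lung at E12.5 (15.9%) and in trachea (17.3%). Ratios of mean TPM were larger, at 28.7-fold, 23.5-fold, 20.1-fold and 24.3-fold against lung at E15.5, where the median of all genes was −0.31 in log2 TPM and −0.03 by edgeR. These sizes rest on wt diaphragm replicate 3, and without it the edgeR differences from lung at E15.5 were 174-fold, 93.0-fold, 51.4-fold and 76.5-fold. Against trachea they were 3.44-fold, 6.90-fold, 2.95-fold and 4.92-fold with the library and 24.7-fold, 32.5-fold, 8.98-fold and a log2 difference of −4.21 without it. Between 16% and 17.3% of all genes were called lower in diaphragm then, 16.7% against lung at E12.5. *Irx3* overlapped between diaphragm and trachea only through replicate 3. Against lung at E15.5 all 7 lung epithelium markers (median log2 fold change −2.75) and all 7 epithelial markers (−3.79) were called lower in diaphragm as well, and all 7 skeletal muscle markers higher (11.3). The epithelial markers summed to 78.8, 108, 314 and 32.2 TPM in wt diaphragm against 1600, 1710, 2050 and 1630 TPM in wt lung at E15.5, none at 0. Their part in the low Iroquois levels of diaphragm was not tested. With all libraries the call of *Irx1* against trachea (adjusted p 0.0413) was lost when any of 14 other libraries was left out (0.0511 to 0.106), and that of *Irx3* (0.0215) when wt diaphragm replicate 1, 2 or 4 was left out, to adjusted p-values between 0.0586 and 0.0663 for *Irx3*.

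**Figure D2:**
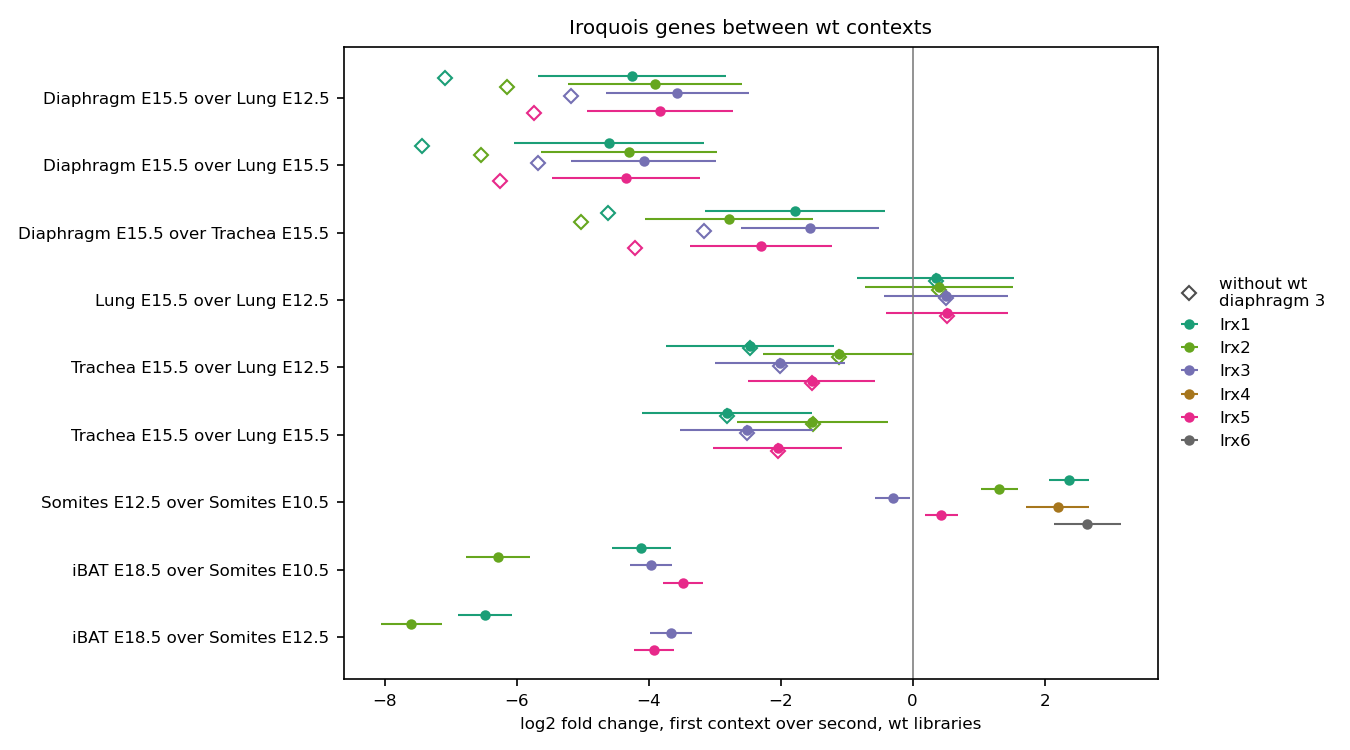
Log2 fold change of each Iroquois gene between wt contexts from edgeR. Bars are approximate 95% intervals from the standard error and a normal distribution, narrower than the quasi-likelihood test allows. Open diamonds give the same comparison without wt diaphragm replicate 3. *Irx4* and *Irx6* are left out against iBAT, where they had no counts. Points left of 0 are lower in the context named first: diaphragm and trachea lay below lung, iBAT below somites, and *Irx1*, *Irx2*, *Irx4* and *Irx6* rose between the somite stages.

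In somites the chromosome 13 genes rose between E10.5 and E12.5. *Irx1* rose 5.17-fold (log2 2.37, SE 0.15, adjusted p 1.29e-10), *Irx2* 2.48-fold (1.31, SE 0.14, adjusted p 2.01e-07) and *Irx4* 4.59-fold (2.20, SE 0.24, adjusted p 1.37e-06) by edgeR's quasi-likelihood test. The chromosome 8 genes were divided. *Irx6* rose 6.27-fold (2.65, SE 0.26, adjusted p 2.93e-07), *Irx5* was 1.35-fold higher and under the fold limit (0.44, SE 0.13, adjusted p 0.00712), and *Irx3* did not pass the test (−0.30, SE 0.14, adjusted p 0.065). Thus 4 of 6 members were called higher, where 23.4% of all genes were, and *Irx3* was the only member whose stages overlapped (31% of all genes were higher without overlap). Without wt somites replicate 3 at E10.5 the same 4 genes were called (24% of all genes), with rises of 5.91-fold, 2.71-fold, 5.95-fold and 7.05-fold for *Irx1*, *Irx2*, *Irx4* and *Irx6*.

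Within single libraries the change of balance was seen as a ratio. *Irx1* over *Irx3* went from 0.206 ± 0.0325 at E10.5 to 1.32 ± 0.152 at E12.5, *Irx1* over *Irx2* went from 0.618 ± 0.0533 to 1.30 ± 0.0411, and *Irx3* over *Irx5* from 2.45 ± 0.170 to 1.47 ± 0.0808 (SD, n = 4 each). None of these 3 ratios overlapped between stages. Other cell types moved with stage as well. The 4 squamous epithelium markers, led by *Krt5*, summed to 14.3, 14.8, 30.7 and 20.8 TPM at E10.5 and to 491, 483, 487 and 501 TPM at E12.5, and all 4 were called higher. The 7 neural markers, led by *Tubb3*, summed to 905, 725, 1160 and 1040 TPM and then to 183, 140, 369 and 231 TPM, and all 7 were called lower. Of 7 skeletal muscle markers 5 rose and 1 fell, all 5 cartilage markers rose, and of 7 epithelial markers 4 rose. The 6 somite markers changed less, with 2 higher and 1 lower and a median log2 fold change of 0.34 against −0.04 over all genes. Their part in the rise of the 4 Iroquois genes was not tested.

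In iBAT all 6 members were called lower than in somites of either stage, where 36.0% of all genes were called lower than at E12.5 and 36.8% lower than at E10.5. Against E12.5 the fall was 89.3-fold for *Irx1*, 194-fold for *Irx2*, 12.7-fold for *Irx3* and 15.1-fold for *Irx5*, and against E10.5 it was 17.3-fold, 78.2-fold, 15.6-fold and 11.2-fold. These folds are on the TMM scale of edgeR, where the median log2 fold change of all genes was −0.24 and −0.19. As ratios of mean TPM that median was −1.35 and −1.21, and the fall was 205-fold, 452-fold, 28.4-fold and 34.1-fold against E12.5 and 37.9-fold, 174-fold, 33.4-fold and 23.9-fold against E10.5. Mitochondrial genes took 10.31% to 12.91% of counts in wt iBAT and 1.454% to 2.483% in wt somites, and their part in the shift between scales was not tested. *Irx3* and *Irx5*, which are known in adipose tissue as targets of regulatory sequence within *Fto*, had the highest levels of the family in iBAT. Marker lists differed as well. Against somites at E12.5 all 7 epithelial markers (median log2 fold change −8.42), all 4 squamous (−9.48), all 5 cartilage (−9.60), all 5 limb bud and 5 of 6 somite markers were called lower in iBAT, and all 8 brown fat markers higher (6.23). Against E10.5 the 7 epithelial and 4 squamous markers, 3 of 5 cartilage, 4 of 5 limb bud and 4 of 6 somite markers were lower, while 1 limb bud marker and all 8 brown fat markers were higher. In wt iBAT the epithelial markers summed to between 0.486 and 2.24 TPM, with *Krt8* or *Krt18* most abundant and 1 to 4 of the 7 at 0. Their part in the fall of the Iroquois genes was not tested.

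The balance of the clusters was described as the log2 ratio of summed TPM, *Irx1* with *Irx2* and *Irx4* over *Irx3* with *Irx5* and *Irx6*, in each library. The ratio is a description of the members, and no test was made. In wt it was 0.61 ± 0.14 in trachea, 0.51 ± 0.06 in lung at E12.5 and 0.37 ± 0.09 in lung at E15.5 (SD, n = 4 each), that is, in favour of chromosome 13 in each of the 12 libraries, although with the mean of log2(TPM + 0.1) over the genes of a cluster it was −0.05 in trachea, 0.22 in lung at E12.5 and −0.11 in lung at E15.5. Diaphragm was variable, at −0.77, −0.35, 0.25 and −1.39. Only replicate 3 was above 0, and without it the mean was −0.84.

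Somites went from the chromosome 8 to the chromosome 13 side. The ratio was −1.26, −1.65, −1.16 and −1.06 at the earlier and 0.73, 0.44, 0.61 and 0.40 at the later stage, and its sign at each stage was the same with the mean of log2(TPM + 0.1), at −0.30 and 0.80. The summed level of *Irx1*, *Irx2* and *Irx4* went from 33.4 ± 9.33 to 127 ± 13.6 TPM, and that of *Irx3*, *Irx5* and *Irx6* from 80.8 ± 18.6 to 86.6 ± 7.90 TPM (SD, n = 4 each). The chromosome 13 sums of the stages did not overlap, while the chromosome 8 sums differed by less than their SD. iBAT was the furthest on the chromosome 8 side, at −2.78 ± 0.61 in wt (SD, n = 5). In *Hoxa5*-/- libraries the ratio was 0.48 in trachea, 0.79 in lung at E12.5, 0.53 in lung at E15.5, −1.75 in diaphragm, −1.16 in somites at E10.5, 0.70 in somites at E12.5 and −2.80 in iBAT. Genotypes overlapped in trachea, in lung and somites of both stages and in iBAT, and in diaphragm the *Hoxa5*-/- libraries, at −1.56, −1.46, −2.54 and −1.42, all lay below the lowest wt library, at −1.39. The gap was small, −1.42 against −1.39, and *Hoxa5*-/- diaphragm libraries held only 8 to 46 counts of *Irx1* and 12 to 34 of *Irx2*. Of all genes tested in diaphragm 6.87% did not overlap between genotypes in TPM, a share of single genes and not of ratios. Neural markers were also lower in *Hoxa5*-/- diaphragm, as given with that comparison. Medians of epithelial, lung epithelium and squamous markers were below 0 there too, and that of cartilage markers was above 0 (3.18). The part of all these markers in the ratio was not tested.

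**Figure D3:**
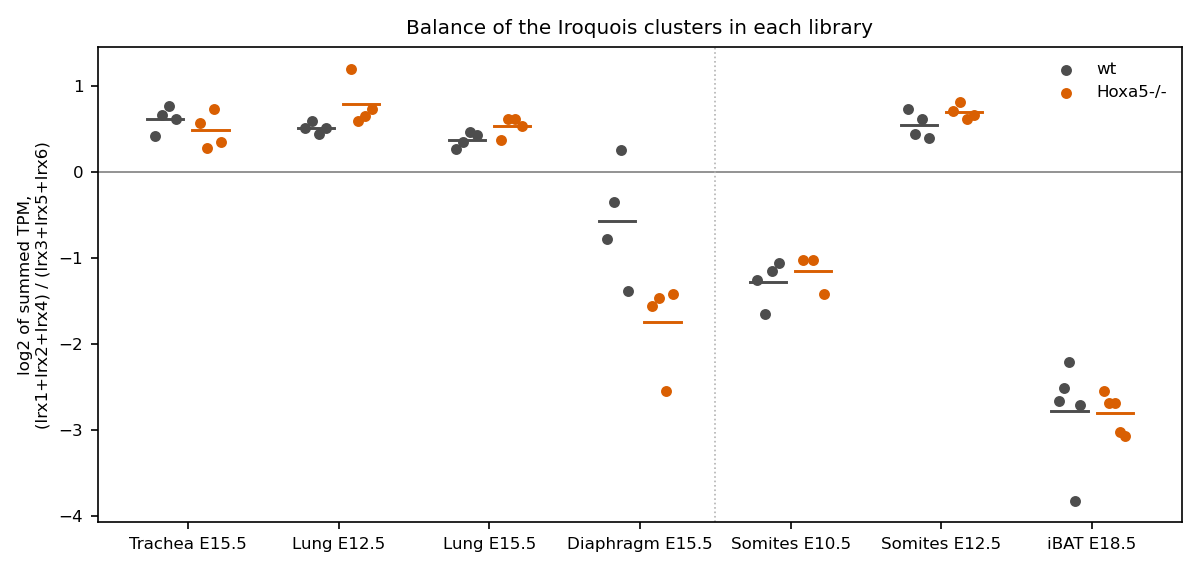
Log2 ratio of the summed TPM of *Irx1*, *Irx2* and *Irx4* to that of *Irx3*, *Irx5* and *Irx6* in each library, wt in grey and *Hoxa5*-/- in orange, bars at group means. Somites lay below 0 at E10.5 and above 0 at E12.5 in every library of both genotypes, iBAT was lowest, and the values above 0 in wt trachea and lung at E15.5 fall just below 0 when the mean of log2(TPM + 0.1) is taken in place of sums.

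The main question of the study was whether *Hoxa5*-/- tissues differ from wt. Of 29 tests of an Iroquois gene within a context, 0 were called by edgeR's quasi-likelihood test, 4 had an unadjusted p under 0.05 (between 2.47% and 13% of all genes, depending on the context), and DESeq2 called 0 of the 25 for which it gave an adjusted p. By edgeR few genes were called at all. The share was 0.0156% of those tested in trachea, 0.0798% in lung at E12.5, 0.124% in lung at E15.5 and 0.594% in diaphragm. In somites it was 0.0215% at E10.5 and 0.00529% at E12.5, and in iBAT 0.00657%. DESeq2, the tool of the study, called more genes in every context. It called 52 genes against 3 by edgeR in trachea and 81 against 14 in lung at E12.5. In lung at E15.5 it called 83 against 22, and in diaphragm 406 against 107. Somites had 18 against 4 at E10.5 and 2 against 1 at E12.5, and iBAT 4 against 1. *Irx4* and *Irx6* reached the minimum of 1 TPM for a test only in somites, and in iBAT *Irx3* alone did. Of the 29 pairs of groups 1 did not overlap, *Irx5* in lung at E15.5, a context in which 2.96% of all genes tested did not overlap.

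In trachea *Irx3* was at 28.9, 19.6, 28.4 and 20.1 TPM in wt and at 32.2, 32.6, 25.1 and 33.8 TPM in *Hoxa5*-/- libraries. The groups overlapped (log2 fold change 0.34, SE 0.16, adjusted p 0.756), and *Irx1*, *Irx2* and *Irx5* differed by 0.21 or less on the log2 scale. Epithelial markers in trachea summed to 1740, 1210, 2110 and 1250 TPM in wt and to 1700, 1520, 1540 and 1490 TPM in *Hoxa5*-/- libraries. In lung at E12.5 *Irx1* was at 157, 113, 103 and 94.2 TPM and *Irx2* at 134, 91.9, 84.6 and 96.0 TPM in *Hoxa5*-/- libraries, so that replicate 1 exceeded every wt library for both genes. The log2 differences were 0.12 and 0.25, neither called, and −0.12 and 0.02 without replicate 1. That library had a mitochondrial share of counts of 0.3992%, against 1.709% to 2.235% in the other 7 lung libraries of the stage, and a cluster ratio of 1.201 against 0.59 to 0.73 in the other *Hoxa5*-/- libraries. The part of RNA quality in its levels was not tested. *Irx3* at that stage was at 80.2, 88.5, 75.2 and 73.4 TPM in *Hoxa5*-/- libraries, overlapping with wt (−0.18, SE 0.08, adjusted p 0.632). Its partner *Irx5* differed by −0.05.

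In lung at E15.5 *Irx5* was at 64.8, 64.8, 60.7 and 35.4 TPM in *Hoxa5*-/- libraries, all below the wt range of 65.6 to 72.7 TPM. The log2 fold change was −0.21 (SE 0.08, unadjusted p 0.028, adjusted p 0.717 by edgeR). *Irx3*, at 130, 119, 121 and 63.1 TPM, had the same log2 fold change of −0.21 (SE 0.11, adjusted p 0.849), with groups that overlapped. *Irx1* at 139, 161, 154 and 71.7 TPM and *Irx2* at 114, 120, 125 and 71.2 TPM differed by −0.05 and −0.04. Replicate 4 was lowest for all 4 genes, and without it the differences were 0.07 for *Irx1*, 0.01 for *Irx2*, −0.12 for *Irx3* and −0.14 for *Irx5* (unadjusted p 0.0543 for *Irx5*), where 0.0505% of all genes were called. In that library *Epcam*, an epithelial adhesion gene, was at 246 TPM, against 415, 365 and 426 TPM in replicates 1 to 3, and *Nkx2-1* at 212 TPM against 435, 368 and 561 TPM. All 7 epithelial markers together summed to 1000 TPM against 1740, 1550 and 2030 TPM, none of them at 0, and 7 cardiac markers to 473 TPM against 206, 36.0 and 67.1 TPM. It was also the shallowest of the 8 lung libraries of that stage, with 20692978 counts against 29702712 to 53939635 in the other 7, and had the largest share of mitochondrial counts, 2.249% against 1.689% to 1.956%. The part of these markers, depth and RNA quality in its Iroquois levels was not tested.

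Diaphragm had the largest fitted differences between genotypes, and these rest on 1 library. In *Hoxa5*-/- diaphragm *Irx1* was at 0.656, 1.32, 0.317 and 0.435 TPM, *Irx2* at 0.863, 0.505, 0.380 and 0.843 TPM, *Irx3* at 3.92, 4.42, 3.20 and 2.65 TPM, and *Irx5* at 1.003, 0.699, 0.863 and 0.859 TPM. Each range overlapped with wt. The log2 fold changes were −2.82 for *Irx1* (SE 1.23, adjusted p 0.379), −2.90 for *Irx2* (SE 1.07, adjusted p 0.297), −0.87 for *Irx3* (SE 0.76, adjusted p 0.679) and −1.70 for *Irx5* (SE 0.86, adjusted p 0.452) by edgeR. Without wt replicate 3, where 0.742% of genes were called, *Irx2* differed by −0.64 (adjusted p 0.496) and *Irx3* by 0.75 (SE 0.23, unadjusted p 0.0106, adjusted p 0.185), while *Irx1* and *Irx5* fell under 1 TPM and were not tested. The sign for *Irx3* thus turned with this library.

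Wt diaphragm replicate 3 also carried markers of lung epithelium. *Nkx2-1* was at 0.489, 0.642, 57.1 and 0.0698 TPM in replicates 1 to 4, *Sftpc* at 5.07, 4.83, 322 and 1.34 TPM, and *Foxa2*, another transcription factor gene of endoderm, at 1.43, 3.08, 15.2 and 0.502 TPM. The 7 lung epithelium markers summed to 101, 131, 567 and 85.7 TPM, with *Sftpc* most abundant in replicate 3 and *Etv5* in the other 3, and none at 0. In *Hoxa5*-/- diaphragm they summed to 108, 92.7, 128 and 92.4 TPM. Liver markers were at 1600, 1500, 8480 and 1840 TPM in wt. In *Hoxa5*-/- diaphragm they are given for replicates 3 and 4 only, at 10400 and 8990 TPM. The 6 Iroquois genes summed to 6.63, 6.97, 4.76 and 4.82 TPM in *Hoxa5*-/- replicates 1 to 4. Squamous epithelium markers were at 210, 356, 12.9 and 20.8 TPM in wt replicates 1 to 4 and at 23.8, 15.8, 15 and 20.8 TPM in *Hoxa5*-/- libraries, so that replicate 3 was the lowest of all 8. Neural markers summed to 14.8, 28, 9.21 and 14.7 TPM in wt and to 1.18, 2.06, 2.36 and 2.42 TPM in *Hoxa5*-/- libraries, with *Tubb3*, a neuronal tubulin gene, most abundant in each. Between genotypes edgeR called both of the 2 neural markers tested lower (median log2 fold change −3.98), 1 of 7 epithelial markers lower (−3.65), 0 of 7 lung epithelium markers (−2.16) and 0 of 4 squamous markers (−2.74). The part of RNA from any of these cell types in the Iroquois levels of diaphragm was not tested.

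In somites at E10.5 *Irx4* was at 4.92, 6.08 and 5.50 TPM and *Irx1* at 14.9, 15.49 and 17.2 TPM in *Hoxa5*-/- libraries. Both were above 3 of the 4 wt libraries and overlapped only with wt replicate 3, at 5.27 TPM of *Irx4* and 17.03 TPM of *Irx1*. The log2 fold changes were 0.85 for *Irx4* (SE 0.29, unadjusted p 0.0144, adjusted p 0.391) and 0.40 for *Irx1* (SE 0.18, adjusted p 0.391), neither called. The other members differed by 0.13 for *Irx2*, 0.27 for *Irx3*, 0.03 for *Irx5* and 0.42 for *Irx6*. Without wt replicate 3 the differences were 1.24 for *Irx4* (2.36-fold, adjusted p 0.0139) and 0.61 for *Irx1* (1.52-fold, adjusted p 0.0177), and both were called higher, as were 1.31% of all genes. The share of genes called in either direction rose from 0.0215% to 2.07% at the same time, and the library was singled out after its *Irx1* and *Irx4* levels were seen.

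Marker sums of other cell types were set beside these genes. The 7 skeletal muscle markers summed to 124, 129, 236 and 165 TPM in wt and to 253, 238 and 239 TPM in *Hoxa5*-/- somites at E10.5, and none was at 0. The 4 squamous markers summed to 14.3, 14.8, 30.7 and 20.8 TPM and to 37.3, 32.9 and 20.9 TPM, overlapping between genotypes. Epithelial markers were at 60.2, 104, 102 and 62.2 TPM in wt and at 109, 117 and 115 TPM in *Hoxa5*-/- libraries. No marker of these lists was called, and the median log2 fold changes were 0.33 for skeletal muscle, 0.48 for squamous epithelium and 0.59 for epithelium against −0.01 over all genes. Their part in the levels of *Irx1* and *Irx4* was not tested. At E12.5 the 6 members differed by between −0.21 for *Irx3* and 0.25 for *Irx6*, each with an adjusted p of 0.999. *Irx4* at that stage was at 10.9, 13.1, 19.1 and 16.3 TPM in *Hoxa5*-/- and at 15.2, 12.99, 15.1 and 14.04 TPM in wt libraries.

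**Figure D4:**
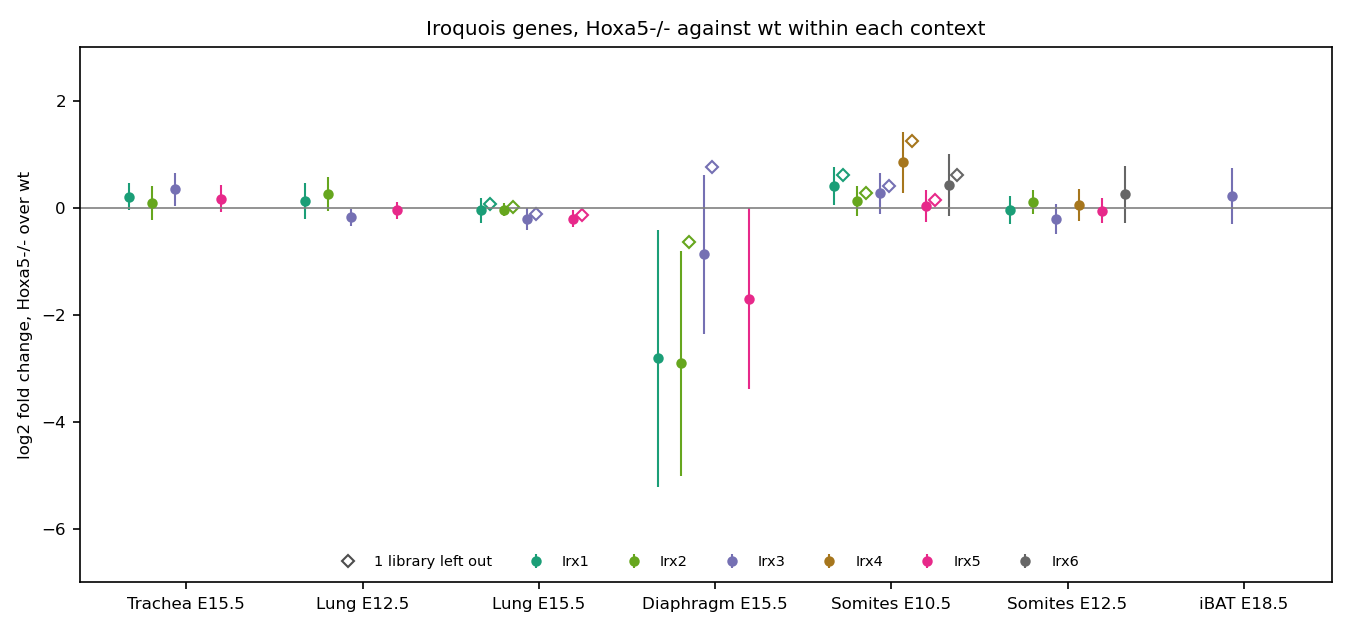
Log2 fold change of each tested Iroquois gene between *Hoxa5*-/- and wt in each context from edgeR. Bars are approximate 95% intervals from the standard error and a normal distribution, narrower than the quasi-likelihood test allows. A bar that leaves out 0 is therefore not a call, as for *Irx3* in trachea (unadjusted p 0.0606 by that test). Open diamonds leave out wt diaphragm replicate 3, *Hoxa5*-/- lung E15.5 replicate 4 or wt somites E10.5 replicate 3, and *Irx1* and *Irx5* of diaphragm have none since they were not tested without it. Filled points outside diaphragm lay within 1 of 0, and diaphragm had the widest bars.

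In iBAT *Irx3* was at 2.91, 2.29, 0.913, 2.16 and 1.42 TPM in *Hoxa5*-/- libraries, around the wt values of 1.305 to 2.38 TPM (log2 fold change 0.22, SE 0.26, adjusted p 1.0). Whether the effect of genotype differed from context to context was tested by interaction terms in 5 contrasts, with 22 tests of a member. edgeR called 0, where it called 0.00947% of genes between the lung stages, 0.0616% between trachea and lung at E15.5, 1.11% between trachea and diaphragm, 1.02% between lung at E15.5 and diaphragm and 0.0147% between the somite stages. DESeq2 called 0 of the 6 members for which it gave an adjusted p, and 7 of the 22 had an unadjusted p under 0.05 in edgeR. Of these, 6 were *Irx1*, *Irx2* and *Irx5* in the contrasts of trachea and of lung at E15.5 with diaphragm, in which 9.34% and 8.16% of all genes had such a p, and 1 was *Irx4* between the somite stages (14.3%). The smallest adjusted p was that of *Irx2* between trachea and diaphragm, 0.0644 at a difference of 2.97 (SE 0.80). Without wt diaphragm replicate 3 that difference was 0.74 and the corresponding one of *Irx1* went from 2.95 to 0.11, while *Irx3* between lung at E15.5 and diaphragm went from 0.62 to −0.99 (adjusted p 0.0392, 1.1% of all genes called). Without wt somites replicate 3 at E10.5, *Irx1* (−0.64, adjusted p 0.0456) and *Irx4* (−1.16, adjusted p 0.0108) were called between the somite stages, as were 2.55% of all genes. Without wt diaphragm replicate 1 *Irx2* was called against trachea (0.98% of all genes called) and against lung at E15.5 (0.947%), and without replicate 2 against trachea (0.88%). Without replicate 4 both *Irx1* and *Irx2* were called against trachea (1.5%) and against lung at E15.5 (1.41%).

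The summed Iroquois level was set beside *Epcam* in the respiratory libraries, because the 4 expressed members are known from epithelium. The ratio of the summed TPM to *Epcam* was between 1.55 and 1.81 in wt lung at E12.5, between 1.08 and 1.27 in wt lung at E15.5 and between 0.328 and 0.392 in wt trachea. These ranges did not overlap. *Epcam* was at 243 to 342 TPM in wt trachea and 177 to 226 TPM in wt lung at E12.5, and the Iroquois sum at 88.7 to 129 TPM and 320 to 349 TPM. The part of epithelial content in the Iroquois levels of these tissues was not tested. The ratio was 0.982 in *Hoxa5*-/- lung replicate 4 at E15.5 and 1.08, 1.27 and 1.08 in the other 3, and it was 0.527, 0.387, 1.11 and 2.02 in wt diaphragm replicates 1 to 4. Replicate 3 lay within the range of its own group, whose upper end is replicate 4 with only 1.58 TPM of *Epcam*. *Hoxa5*-/- diaphragm was at 2.96 to 4.73. Whether epithelial content accounts for the level of replicate 3 was not tested. In trachea the ratio was between 0.336 and 0.436 in *Hoxa5*-/- libraries, overlapping with wt. *Hoxa5*-/- lung at E12.5 was at 2.19, 1.53, 1.72 and 1.63 in replicates 1 to 4, with replicate 1 above the wt range.

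**Figure D5:**
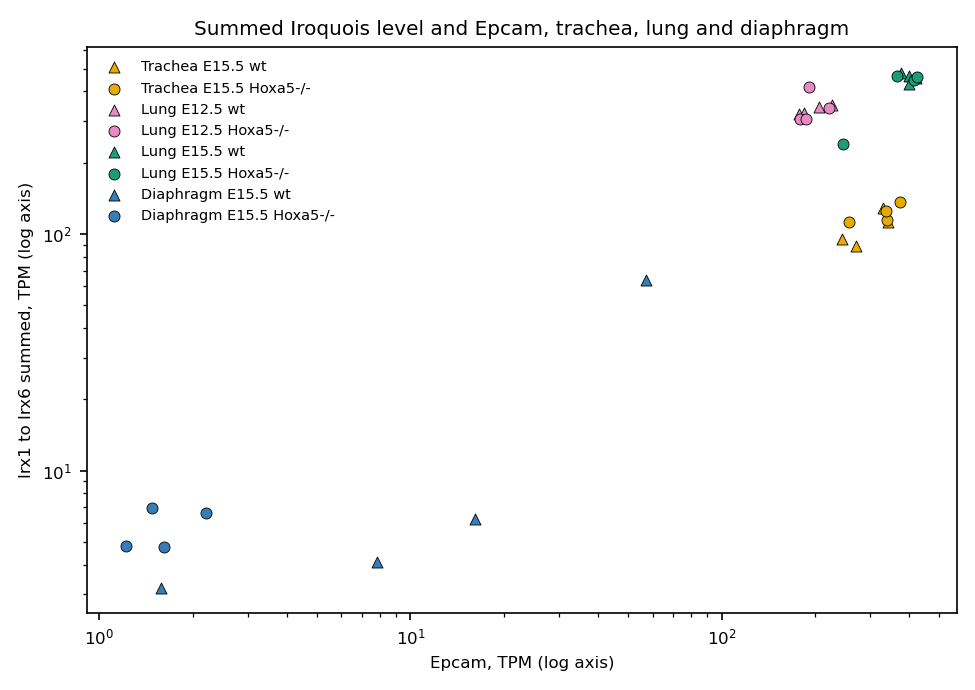
Summed TPM of *Irx1* to *Irx6* against TPM of *Epcam* in each trachea, lung and diaphragm library, both axes logarithmic, triangles for wt and circles for *Hoxa5*-/-. Trachea lies below lung, also below lung at E12.5 with its lower *Epcam*, and wt diaphragm replicate 3, at 63.6 TPM, lies between the other diaphragm libraries and the remaining tissues.

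Long noncoding RNA genes lie next to some members. *Gm20554* was at 19.1 and 22.3 TPM in wt lung at E12.5 and E15.5, 10.4 TPM in trachea, 1.03 TPM in diaphragm, 1.99 TPM in somites of E10.5, 7.40 TPM in those of E12.5 and 0.0114 TPM in iBAT. In somites it rose with *Irx2*, by a log2 fold change of 1.82 (SE 0.26, adjusted p 6.33e-06 by edgeR). *Irx3os* and *Crnde* did not follow this direction. *Irx3os* fell between the somite stages by 0.89 (adjusted p 0.0106) and *Crnde* by 0.87 (adjusted p 7.75e-05), whereas *Irx3* did not pass the test and *Irx5* was 0.44 higher. Between trachea and lung at E15.5 *Irx3os* and *Crnde* were lower in trachea by log2 fold changes of −2.31 and −2.35, like their neighbours, and *Gm20554* at −1.18 was not called (adjusted p 0.0568).

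Beyond these, the annotation holds further genes within 500 kb of a member, and with the noncoding partners the lists have 13 genes on chromosome 13 and 20 on chromosome 8. Between genotypes 0 of either list were called in any context by edgeR. Between the somite stages 2 of 9 tested on chromosome 13 rose, *Gm20554* and *Clptm1l* (0.62), and *Slc12a7*, a potassium chloride cotransporter gene, fell (−0.90). On chromosome 8, 4 of 13 rose, among them *Fto* (0.83), *Mmp2* (1.94), a gelatinase gene of connective tissue, and *Slc6a2* (4.32), the noradrenaline transporter gene, and 3 noncoding genes fell. Over all genes 23.4% were called higher and 18.1% lower. The median log2 fold changes were −0.12 and 0.52 against −0.04 over all genes. Between trachea and lung at E15.5, 2 of 9 and 4 of 15 were lower in trachea (11.1% of all genes) and 0 and 3 were higher (19.7%), and the lower ones include *Lpcat1* (−1.38), an enzyme gene of surfactant lipid synthesis.

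The other homeobox genes of the TALE class tested for comparison were the 11 genes *Meis1* to *Meis3*, *Pbx2* to *Pbx4*, *Pknox1*, *Pknox2*, *Tgif1*, *Tgif2* and *Mkx*. They encode, among others, the MEIS and PBX partners of HOX proteins. Between genotypes edgeR called 0 of the 11 in each context, of which 7 were tested in iBAT and all 11 elsewhere. In lung 6 were lower and 1 higher at E15.5 than at E12.5 (8.54% and 14.5% of all genes), with a median log2 fold change of −0.81 against 0.01 over all genes. *Meis1* fell from 80.9 to 34.1 TPM between these stages. Between trachea and lung at E15.5 only *Pbx4* was called, higher in trachea (19.7% of all genes), and the median was −0.22. Between the somite stages 1 rose, the tendon gene *Mkx*, and 4 fell, *Pbx3*, *Pbx4*, *Meis3* and *Pknox2* (23.4% and 18.1% of all genes). In iBAT 10 of 11 were lower than in somites at E12.5 (all but *Pbx4*) and 10 of 11 than at E10.5 (all but *Pknox1*), beside 36.0% and 36.8% of all genes.

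Across the 29 wt libraries *Irx1*, *Irx2*, *Irx3* and *Irx5* correlated within and between clusters, and *Irx4* correlated with *Irx6*. Pearson's r of log2(TPM + 1) was 0.979 for *Irx1* and *Irx2*, 0.990 for *Irx3* and *Irx5*, 0.948 for *Irx1* and *Irx3*, 0.969 for *Irx1* and *Irx5*, and 0.967 for *Irx4* and *Irx6*. Between *Irx4* or *Irx6* and the rest r was low, from 0.235 (*Irx2* and *Irx4*) to 0.365 (*Irx5* and *Irx6*). It was 0.252 for *Irx1* and *Irx4*. Over the 13 wt somite and iBAT libraries, the set in which *Irx4* was expressed, the same pairs lay between 0.739 (*Irx3* and *Irx6*) and 0.992 (*Irx1* and *Irx4*). For the noncoding partners r over the 29 wt libraries was 0.957 for *Irx2* and *Gm20554*, 0.940 for *Irx3* and *Irx3os* and 0.941 for *Irx5* and *Crnde*. These libraries share tissue, centre and depth, so the values describe the distribution over 7 contexts. Within groups, as deviations from the group mean over all 57 libraries, r within a cluster was 0.922 for *Irx1* and *Irx2* and 0.886 for *Irx3* and *Irx5*, between clusters it lay between 0.852 (*Irx2* and *Irx3*) and 0.920 (*Irx1* and *Irx5*), and with *Epcam* it lay between 0.782 (*Irx5*) and 0.825 (*Irx1*). Without the wt diaphragm and *Hoxa5*-/- lung E15.5 groups (49 libraries) the values were 0.660 and 0.523 within, 0.384 to 0.672 between clusters and, with *Epcam*, 0.429 for *Irx1*, 0.391 for *Irx2*, 0.590 for *Irx3* and 0.574 for *Irx5*.

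Outside the Iroquois family, the genes with the most similar levels were taken from 15745 protein-coding genes by Pearson's r over the same 29 wt libraries. They were *Cped1*, *Sema4f* and *Shroom4* for *Irx1* (0.971, 0.971 and 0.969), and *Bmp5*, *Foxp2* and *Stx6* for *Irx2* (0.977, 0.970 and 0.967). *Bmp5* encodes a BMP ligand and *Foxp2* a forkhead factor of lung epithelium, at 53.6 and 40.2 TPM in lung at E15.5, 27.4 TPM (*Bmp5*) in somites at E12.5 and 1.65 and 1.08 TPM in iBAT. For *Irx3* they were *Suds3*, *Acot1* and *Gfod2* (0.967, 0.961 and 0.959), and for *Irx5* *Acot1*, *Fam117b* and *Cdc42ep4* (0.959, 0.956 and 0.951). *Gjb6*, which encodes the gap junction protein connexin 30, was the most similar to both *Irx4* (0.995) and *Irx6* (0.981), at 3.60 and 31.6 TPM in somites at E10.5 and E12.5. It was followed by *Slc22a6* and *Cbln4* for *Irx4* (0.981 and 0.978) and by *Cntnap4* and *Ptchd4* for *Irx6* (0.977 and 0.973). The lists depend on the measure, and by Spearman's rho *Gjb6* is among the first 3 for neither gene.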

How the data were processed

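Gene counts and TPM values were deposited for 57 bulk libraries, which the labels call biological replicates. Per the labels and the study's methods, the authors mapped reads to GRCm39 with STAR 2.7.9a after trimming (Trim Galore 0.6.5), and took raw counts by featureCounts 2.0.3 from an Ensembl annotation curated for Hox genes. The deposited TPM are the authors' counts per exon length, brought to a fixed sum per library, and recomputation differed by at most 2.9e-11. No libraries were identical. The Iroquois genes and the gene lists were chosen with earlier results of these data known. A gene of the list of TALE homeobox genes is not reported here.

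Genes with a mean of at least 1 TPM in either genotype, or in any group of a fit, were tested on the counts with edgeR 4.0.16 (TMM normalization, quasi-likelihood test, R 4.3.3), genotypes within each context and wt contexts and interactions in 1 fit per sequencing set. P-values were adjusted by Benjamini-Hochberg over all genes tested, and calls required an adjusted p below 0.05 with 1.5-fold change or more. Standard errors were derived from the F statistic, as the size of the log2 fold change over the root of F. Alternatives were DESeq2 1.42.0, its size factors in edgeR, a minimum of 10 counts, no filter, no fold minimum, a replicate block, leaving out each library, and 1 fit for all libraries of a set. The genes named were the 6 members, their noncoding neighbours, the 3 genes outside the family most like each member by Pearson's r and members of the lists that were called. Scripts used Python 3.11.15 with pandas 2.3.3, and were tested on simulated data.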

Additional observations from a re-analysis of the deposited data

Results flagged for a closer look

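Of 48 sets of 4 or 5 libraries (a gene in a group, mean of at least 1 TPM), 8 held a value far from the rest by Dixon's criterion. The same 3 libraries account for all 8. These counts cannot be compared with a chance rate, since the sets share libraries. In wt diaphragm *Irx1* and *Irx5* also reached the mean of 1 TPM only with replicate 3 (0.707 and 0.719 TPM without it). Wt diaphragm replicate 3 was high for *Irx1* (17.7 TPM), *Irx2* (16.9 TPM), *Irx3* (19.9 TPM) and *Irx5* (9.12 TPM), and it also held more *Nkx2-1* and *Sftpc* than the other diaphragm libraries. Wt somites replicate 3 at E10.5 was high for *Irx1* (17 TPM) and *Irx4* (5.27 TPM), and had the highest sum of skeletal muscle markers in its group. *Hoxa5*-/- lung replicate 4 at E15.5 was low for *Irx3* (63.1 TPM) and *Irx5* (35.4 TPM), and had the lowest *Epcam* and *Nkx2-1* of its group. The part of these markers in the Iroquois values was not tested.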

How the results depend on the processing

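Between genotypes 0 members were called by edgeR, 1 without a filter on low genes (*Irx4* in somites at E10.5, log2 fold change 0.85, adjusted p 0.0364, 0.399% of all genes called), 2 with 1 fit for all libraries of a set (*Irx1* and *Irx2* in diaphragm, adjusted p 0.0336 and 0.00977, 2.15% of all genes called), and between 0 and 2 with each of the 57 libraries left out. Between wt contexts 35 of 42 tests were called, between 33 and 36 with a library left out, and 16 by DESeq2, which gave no adjusted p for 24 of the tests and called the same number as edgeR, 16, among the other 18. Interactions had 0 calls, and between 0 and 4 with a library left out. *Irx3* between lung at E15.5 and diaphragm reversed from 0.62 to −0.99 without wt diaphragm replicate 3, and lay between −0.99 and 0.95 over the libraries left out. With the replicate block the counts were 0, 35 and 0. Same-numbered libraries did not all deviate together outside iBAT. In iBAT the 5 correlations were 0.138, 0.151, 0.189, 0.136 and 0.0728, and the column names of each pair begin with a common number that the labels do not explain. Replicates 4 and 5 of both genotypes share 1 such number, which the replicate block splits. Wt replicate 5 correlated best with *Hoxa5*-/- replicate 4 (0.0927), and *Hoxa5*-/- replicate 5 with wt replicate 3 (0.113). *Irx3*, the member tested there, was not called with the replicate block either (0.19, adjusted p 0.999). A block by the common numbers was not fitted.

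With the mean of log2(TPM + 0.1) in place of sums, the wt cluster ratio was −0.051 in trachea, 0.22 in lung at E12.5, −0.11 in lung at E15.5, −0.30 in somites at E10.5, 0.80 in somites at E12.5 and −1.53 in iBAT. With a library left out it ranged from 0.57 to 0.68 in trachea, 0.49 to 0.54 in lung at E12.5, 0.35 to 0.41 in lung at E15.5, −0.84 to −0.29 in diaphragm, −1.36 to −1.16 and 0.48 to 0.60 in somites, and −2.93 to −2.53 in iBAT. Of the results for single genes, 1913 kept direction and side of the threshold, 27 lost and 16 gained a call, and 32 turned sign.

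These 32 belong to 18 differences, which were not called before or after the turn except that of *Irx3* named above. *Irx5* in somites at E10.5 was −0.068 with the replicate block, and the *Irx2* interaction between somite stages 0.0004 without a filter. Over the libraries left out, differences between genotypes lay between −0.12 and 0.22 (*Irx1*) and −0.12 and 0.0011 (*Irx5*) in lung at E12.5, −0.12 and 0.066 (*Irx1*) and −0.082 and 0.0075 (*Irx2*) in lung at E15.5, and −1.19 and 0.75 (*Irx3*) in diaphragm. In somites they lay between −0.091 and 0.14 (*Irx5*) at E10.5, and −0.14 and 0.073 (*Irx1*), −0.096 and 0.18 (*Irx4*) and −0.15 and 0.043 (*Irx5*) at E12.5. Interactions lay between −0.28 and 0.077 (*Irx1*) and −0.090 and 0.070 (*Irx3*) for the lung stages, and −0.15 and 0.087 (*Irx2*) and −0.18 and 0.029 (*Irx5*) for the somite stages. Against diaphragm they lay between −0.43 and 1.51 (*Irx3*) and −0.064 and 2.18 (*Irx5*) for trachea, and −0.15 and 3.27 (*Irx1*) and −0.44 and 1.81 (*Irx5*) for lung at E15.5, each lowest without wt diaphragm replicate 3.

 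Outside somites few or no reads of *Irx4* and *Irx6* were counted, and the main fits did not test them between genotypes there. The cause of these low counts, and of the differences between settings, was not tested.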
